A study of Mus musculus with 16 samples.

Results

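The miR-130 and miR-148 families are small groups of related miRNAs, and 7 of their members were measured in sciatic nerves of mice. The members are mmu-miR-130a, mmu-miR-130b, mmu-miR-301a and mmu-miR-301b of the miR-130 family and mmu-miR-148a, mmu-miR-148b and mmu-miR-152 of the miR-148 family, all of the mouse (mmu), a prefix left out below. Their values were taken from every probe of the array design that carries one of these 7 names, out of 650 miRNA names on the array. The names were not chosen by a limit on any value, but with earlier results of these data known, the decrease of miR-130b at E17 among them. All 7 passed the filter for expressed miRNAs, which 281 names passed. The nerves came from Dicer1 fl/fl Dhh-Cre pos mice, called mutants here, and from Dicer1 wt/fl Dhh-Cre pos mice, called controls. All mice were of the strain given as Dicer1tm1Bdh/J, were taken at embryonic day 17 (E17) or postnatal day 4 (P4), and carried the Cre transgene, and the controls kept 1 functional Dicer1 allele. The 4 groups held 4 mice each, with 1 Agilent mouse miRNA array per mouse. The Dhh promoter drives Cre in Schwann cells, so that fibroblasts, vessels, axons and blood cells of the nerve were meant to keep Dicer in both genotypes. In whole nerves, fewer cells of a type and less of a miRNA per cell cannot be told apart.

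Dicer is the enzyme that cuts hairpin precursors into mature miRNAs, and a mature miRNA finds its target mRNAs mainly through its seed, a short stretch near its 5′ end. In Schwann cells, Dicer is required for myelination. The miRNAs of the miR-130 family are known from endothelial cells, where miR-130a represses the homeobox genes Gax and Hoxa5, and from adipocytes, where miR-130 represses Pparg. The miRNAs of the miR-148 family are known for repressing the DNA methyltransferase gene Dnmt1.

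The mature sequences of 6 members were matched in RefSeq (GRCm38.p6) and are shown because their seeds set the families apart. They are the -3p arms, to which the suffix-free names of the array correspond. Each is written 5′ to 3′, with the seed (bases 2 to 8) in capitals.
miR-130a: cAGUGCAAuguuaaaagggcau
miR-130b: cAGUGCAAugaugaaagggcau
miR-301a: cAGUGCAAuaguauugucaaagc
miR-148a: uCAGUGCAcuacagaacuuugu
miR-148b: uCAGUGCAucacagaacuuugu
miR-152: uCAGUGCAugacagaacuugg

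The miR-130 family members shared the seed AGUGCAA, which 7 of the 1679 mature mouse entries (0.417%) carried. The miR-148 family members shared the seed CAGUGCA, found in 3 entries (0.179%), which are these members themselves. Across the families the 7-letter run CAGUGCA was common to all 6 sequences, starting at base 1 in the miR-130 family and at base 2 in the miR-148 family. The families therefore read nearly the same letters 1 base apart, with the run AGUGCA of 6 letters inside both seeds. Beyond the seed, miR-130a and miR-130b were identical in 20 of 22 bases, and counted from the 5′ end of miR-130a they differ by U11A and A13G. miR-148a and miR-148b were also identical in 20 of 22 bases and differ by C9U and U10C. Probe sequences were not used here, so how far the probes of such close relatives take up each other's RNA is not known.

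In GRCm38.p6 the mature miR-130a lies at chr2:84741116-84741137 on the minus strand, outside any other gene of the table. miR-130b lies at chr16:17124071-17124092 on the minus strand, and its gene, Mir130b, sits 257 bases from Mir301b within 2610318N02Rik. miR-301a lies at chr11:87113054-87113076 on the plus strand within Ska2. miR-148a lies at chr6:51269829-51269850 on the minus strand and overlaps Gm38821. miR-148b lies at chr15:103285185-103285206 on the plus strand within Copz1, and miR-152 at chr11:96850439-96850459 on the plus strand within Copz2, genes that encode the related coatomer subunits zeta 1 and zeta 2. The pair Mir130b and Mir301b was the only neighbourhood of members within 10 kb, and no miR-130 family gene lay that close to a miR-148 family gene.

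Values below are log2 signals, that is the log2 of the median spot signal in scanner units, quantile normalized across the 16 arrays so that every array has the same distribution. Each member is given by its brightest probe. Because the signal includes the local background, log2 differences of dim probes are understated. Each slide held both genotypes but a single age, so that age cannot be told apart from the slide. The total signal per array ranged from 36495 to 60374 at E17 and from 56841 to 154076 at P4, 197 to 260 miRNAs were detected per array, and no spot was saturated. The arrays hold no probe for Dicer mRNA, and the genotypes were taken from the labels alone.

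miR-130a, miR-130b, miR-301a, miR-148a and miR-152 were detected on all 16 arrays. miR-148b was detected on 15 arrays, but its brightest probe was well above background on only 3 control arrays and 1 mutant array at E17, and on 4 control and 2 mutant arrays at P4. miR-301b was detected on 2 E17 control arrays and 1 P4 control array and on 0 arrays of either mutant group. It passed the filter through the E17 controls alone, none of its 4 probes was well above background on any array, and neither a fold nor a test is read from it. The passenger strands miR-130b* and miR-148a* were detected on 2 and 0 arrays and were not expressed by the filter.

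**Figure D1:**
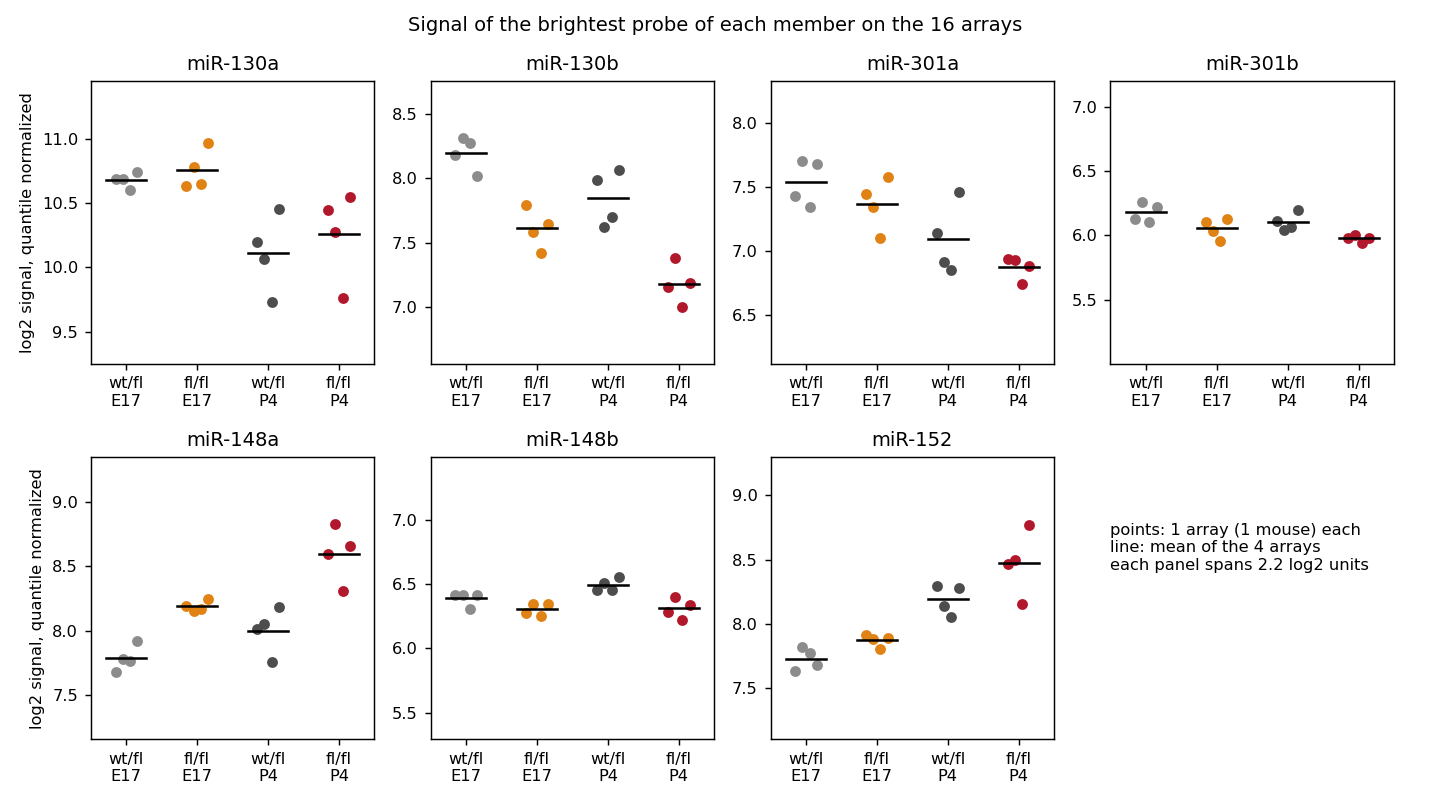
Quantile normalized log2 signal of the brightest probe of each member in the 4 groups. Points are arrays (1 mouse each), lines are means of 4 arrays, and all panels span the same number of log2 units. miR-130b was lower and miR-148a higher on every mutant array than on any control array of the same age, the latter only after normalization, while the genotypes overlapped for miR-130a, miR-301a and miR-152.

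At P4, after quantile normalization, miR-130b was lower and miR-148a higher in Dicer fl/fl Dhh-Cre+ nerves. The difference of miR-148a was -0.09 without normalization between arrays. Of the 7 members, 1 was called higher and 1 lower in the limma fit over all expressed miRNAs, where a call needs an adjusted p no higher than 0.05 together with a change of 0.5 or more on the log2 scale. Over all 281 miRNAs, 21% were called in this comparison, 10.3% higher and 10.7% lower. A count of 2 among 7 is close to that share.

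The log2 signal of miR-130b was 7.99, 7.62, 7.70 and 8.07 on the P4 control arrays. On the P4 mutant arrays it was 7.15, 7.38, 7.0 and 7.18. No mutant array reached the lowest control array. The means were 7.84 ± 0.22 and 7.18 ± 0.15 (SD, n = 4), a log2 difference of -0.66 (standard error 0.112, 95% interval -0.90 to -0.42, limma adjusted p = 0.000238), or 1.59-fold lower in mutants. The second probe of miR-130b gave -0.58 (limma adjusted p = 1.68e-05) and was well above background on 4 control arrays and 1 mutant array. With any single array left out, the difference of the brightest probe lay between -0.74 and -0.59. It stayed below 0 under each of 7 ways of scaling the arrays, between -1.36 and -0.47. It fell short of the limit of 0.5 under the 75th percentile of probes well above background (-0.47) and after normexp background correction (-0.49), and the call was lost there.

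miR-148a was at 8.02, 8.05, 7.75 and 8.18 on the P4 control arrays. On the P4 mutant arrays it was at 8.59, 8.83, 8.31 and 8.66. The arrays did not overlap, and the lowest mutant array, replicate 3, stood close to the highest control array. The means were 8.0 ± 0.18 and 8.60 ± 0.22 (SD, n = 4), a log2 difference of 0.60 (standard error 0.101, 95% interval 0.38 to 0.81, limma adjusted p = 0.000246), or 1.51-fold, which was -0.09 without normalization between arrays and 0.02 with arrays scaled to the 75th percentile of all probes. The second probe differed by 0.42 (limma adjusted p = 0.000799), which is under the limit of 0.5. Leaving out any single array gave 0.51 to 0.69. After normexp it was 0.475, under the limit.

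The other members were not called at P4. miR-152, the closest relative of the miR-148 miRNAs, had means of 8.19 ± 0.11 in controls and 8.47 ± 0.25 in mutants (SD, n = 4). The difference of 0.28 (limma adjusted p = 0.0324) was under the limit and turned to -0.42 without normalization. Mutant replicate 4 was at 8.77 and replicate 3 at 8.15, inside the control range of 8.05 to 8.29. miR-130a, which differs from miR-130b by 2 bases, had 10.11 ± 0.30 in controls and 10.26 ± 0.35 in mutants. The difference of 0.15 (95% interval -0.20 to 0.50, limma adjusted p = 0.494) lay within the spread of the arrays, and its second probe gave 0.01. miR-301a had 7.09 ± 0.28 in controls and 6.87 ± 0.09 in mutants, a difference of -0.22 (95% interval -0.50 to 0.06, limma adjusted p = 0.201). miR-148b had 6.50 ± 0.05 and 6.31 ± 0.08, and its difference of -0.18 had a limma adjusted p of 0.00239 but was under the limit. It was thus opposite in sign to miR-148a, although it was 0.46 when scaled to the 75th percentile of detected probes. The median difference was -0.217 over the miR-130 family without miR-301b, which lay at background (-0.17 with it), 0.28 over the 3 miR-148 family members and 0.06 over all 281 miRNAs.

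At E17, before myelination starts in controls, the decrease of miR-130b was known when the members were chosen, so the members are described at this age and no test is read. miR-130b was the 1 member past the call limits, as the choice of members fixed. Over all expressed miRNAs, 6.05% were called either way and 2.49% as lower. The log2 signal was 8.18, 8.31, 8.27 and 8.02 on the E17 control arrays. On the E17 mutant arrays it was 7.79, 7.58, 7.42 and 7.65. Again no mutant array reached a control array. The means were 8.20 ± 0.13 and 7.61 ± 0.16 (SD, n = 4), a difference of -0.59, or 1.5-fold lower. The second probe differed by -0.43. Over the 7 scalings the difference lay between -0.82 and -0.37.

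miR-148a had its higher values in mutants at E17 too, with a difference under the limit of 0.5. Its signals were 7.68, 7.78, 7.76 and 7.92 in E17 controls. In E17 mutants they were 8.19, 8.15, 8.17 and 8.25. The arrays did not overlap, and the spread of the mutants, an SD of 0.04, was the smaller. The difference was 0.41 (standard error 0.101, 95% interval 0.19 to 0.62), which remained above 0 in all 7 scalings, from 0.03 to 0.54. miR-152 differed by 0.15 (95% interval -0.06 to 0.36), miR-130a by 0.08, miR-301a by -0.17 and miR-148b by -0.08. The median difference was -0.169 over the miR-130 family without miR-301b, 0.15 over the miR-148 family and 0.00 over all expressed miRNAs.

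**Figure D2:**
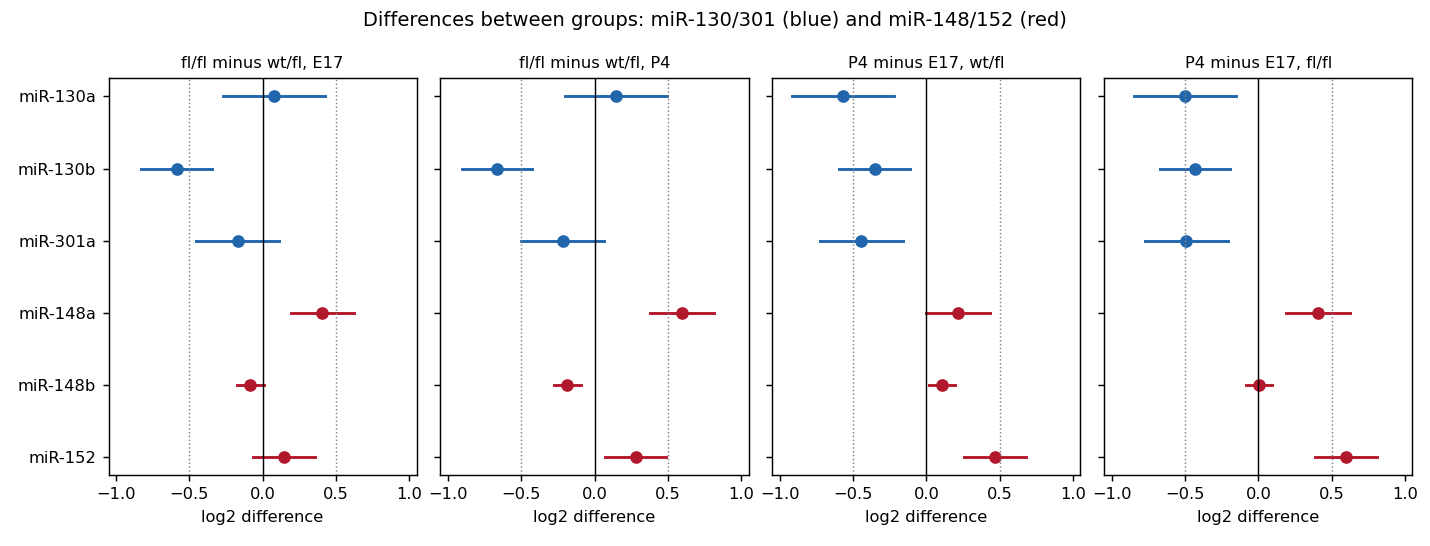
Log2 differences of the 6 members other than miR-301b in 4 comparisons after quantile normalization, with 95% intervals from the limma fit. The brightest probe of miR-148b was well above background on only 10 of the 16 arrays. Blue points are the miR-130 family, red points the miR-148 family, and dotted lines mark the limit of 0.5. miR-130b lay past the lower limit in both genotype comparisons, and miR-148a past the upper limit at P4, where its difference was -0.09 without normalization. In both age comparisons the miR-130 family members lay below 0, and miR-148a and miR-152 above 0. miR-148b lay above 0 in controls and at 0.004 in mutants. The signs turn for miR-130a, miR-130b, miR-301a or miR-148b under other scalings.

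The size of the mutant effect at P4 against that at E17 was tested as an interaction. None of the 7 members was called in limma, while 9.61% of all expressed miRNAs were called. An unadjusted limma p under 0.05 was reached by 0 of the 7 members and by 96 of all 281 expressed miRNAs. The interaction was -0.08 for miR-130b (95% interval -0.42 to 0.26) and 0.19 for miR-148a (95% interval -0.12 to 0.50). It draws on the E17 arrays whose miR-130b values were known at the choice of members, so for miR-130b it is a description. Without normalization between arrays, miR-130a and miR-130b were called, with interactions of -0.76 and -0.86, where the median of all 281 miRNAs shifted to -0.40.

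From E17 to P4, after quantile normalization, miR-130a fell and miR-152 rose against the bulk of the signal of each array, in controls and in mutants. In controls these were the 2 members called, 1 in each direction, against 20.3% of all expressed miRNAs, 8.19% higher and 12.1% lower. The log2 signal of miR-130a in controls was 10.69, 10.69, 10.60 and 10.74 at E17. At P4 it was 10.20, 10.06, 9.73 and 10.45. The P4 arrays lay below all E17 arrays and spread more widely, with an SD of 0.30 against 0.06. The difference was -0.57 (standard error 0.163, limma adjusted p = 0.0126), which turned to 1.13 without normalization between arrays and to 0.76 with the 75th percentile of all probes. Without replicate 3 of the P4 controls it was -0.44 (limma adjusted p = 0.0427) and no longer called. In the authors' normalized table the difference was -0.41, and with the 75th percentile of probes well above background -0.03, neither of them called. The brightest probe had a limma adjusted p of 0.0556 with the background-subtracted signal. Relative to the median of all expressed miRNAs, miR-130a stood at -0.55 after quantile normalization. Without normalization or with either 75th percentile it stood at 0.56. miR-301a differed by -0.44 (limma adjusted p = 0.0144) and miR-130b by -0.35, both under the limit, and they were 0.34 and 0.76 without normalization. For miR-130b no test is read with age, since its E17 values were known when the members were chosen. Without E17 control replicate 3 or P4 control replicate 4, miR-301a was called, at -0.51 and -0.57, while miR-152 was not.

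miR-152 in controls was at 7.63, 7.82, 7.77 and 7.68 at E17. At P4 it was at 8.29, 8.14, 8.05 and 8.28, above every E17 array. The brightest probe differed by 0.47 (standard error 0.0981, limma adjusted p = 0.00183), just under the limit, and the second probe by 0.51 (limma adjusted p = 5.32e-05), so that the call rests on the second probe. The call was lost without replicate 1 or 3 of the E17 controls and without replicate 1 or 4 of the P4 controls. It was also lost after normexp, under the 75th percentile of probes well above background and with probes averaged per miRNA. The difference of the brightest probe stayed above 0 in all 7 scalings, from 0.36 to 1.58. miR-148a rose less with age in controls, by 0.22 (limma adjusted p = 0.107), which was not called. miR-148b differed by 0.11 (adjusted p = 0.0584).

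In mutants, the same 2 members were called between E17 and P4, against 10.7% of all expressed miRNAs, 3.20% higher and 7.47% lower. miR-152 was at 7.91, 7.88, 7.81 and 7.89 on the E17 mutant arrays. At P4 it was at 8.47, 8.49, 8.15 and 8.77. The difference was 0.60 (standard error 0.0981, limma adjusted p = 0.000399) and 0.61 at the second probe, and it was positive in all 7 scalings. Without replicate 4 of the P4 mutants the brightest probe was at the limit, with 0.50, and the second probe kept the call of miR-152. miR-130a was at 10.63, 10.78, 10.65 and 10.97 at E17. At P4 it was at 10.44, 10.27, 9.76 and 10.55. Its difference of -0.50 (limma adjusted p = 0.0329) lay on the limit itself, turned to 0.37 without normalization, and was lost as a call of the brightest probe without replicate 2 or 4 of the E17 mutants or replicate 2 or 3 of the P4 mutants. miR-301a, at -0.49 (limma adjusted p = 0.0134), lay just short of the limit. miR-130b, at -0.43, was also under the limit and is given without a test. miR-148a differed by 0.41 (limma adjusted p = 0.00885). Without replicate 2 of the E17 or P4 mutants, miR-301a was called in place of miR-130a, at -0.501 and -0.511. Without replicate 3 of the P4 mutants, miR-148a was called in its place, at 0.502. The age comparisons share their arrays with the genotype comparisons above, so the P4 controls enter both the decrease of miR-130b in mutants and its value with age.

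Signals before normalization were read as the background-subtracted total gene signal in scanner units. At P4 the total over all miRNAs in mutants was 51.6% of the control mean. miR-130b was far below this share, with 266.0, 239.1, 252.1 and 263.6 on the control arrays. On the mutant arrays it was 59.3, 89.9, 55.5 and 67, a mean of 26.6% of the control mean. miR-148a was at 302.6, 401.7, 300.1 and 333.4 on the control arrays. On the mutant arrays it was at 269.2, 427.0, 251.2 and 323.1, or 95% of the control mean, and the arrays overlapped. miR-130a stood at 52.1%, miR-301a at 47.2%, miR-148b at 44.2% and miR-152 at 71.0% of the control mean. miR-301b, which lay at background, is left out here. All other members except miR-148a had mutant arrays entirely below the control arrays, which held for 41.6% of all expressed miRNAs. miR-130a thus stood at nearly the same share as the total signal, and miR-148a was the member nearest to the control level.

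At E17, the total over all miRNAs was 87.8% of the control mean. miR-130b stood at 51.9% and was the only member whose mutant arrays (69.4 to 85.9) lay entirely below the control arrays (103.3 to 163.9), as 9.25% of all expressed miRNAs did. miR-148a had 121% of the control mean, miR-152 99.9%, miR-130a 87.1%, miR-301a 75.6% and miR-148b 71.9%, all with overlapping arrays.

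With age the unnormalized signals rose in controls, by 2.72-fold over all miRNAs. miR-152 rose 3.75-fold, from between 82.7 and 140.0 to between 379.4 and 473.1, and miR-148a 2.86-fold. miR-130a rose 2.14-fold, miR-148b 2.17-fold and miR-130b 1.77-fold, each with P4 arrays above all E17 arrays, which 58.0% of all expressed miRNAs also showed. miR-301a, at 1.23-fold, overlapped between the ages. In mutants, the total rose 1.6-fold, miR-152 2.67-fold and miR-148a 2.25-fold, without overlap, as in 37.0% of all expressed miRNAs. miR-130b in mutants did not rise, with 0.908 of its E17 signal, and its arrays overlapped.

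**Figure D3:**
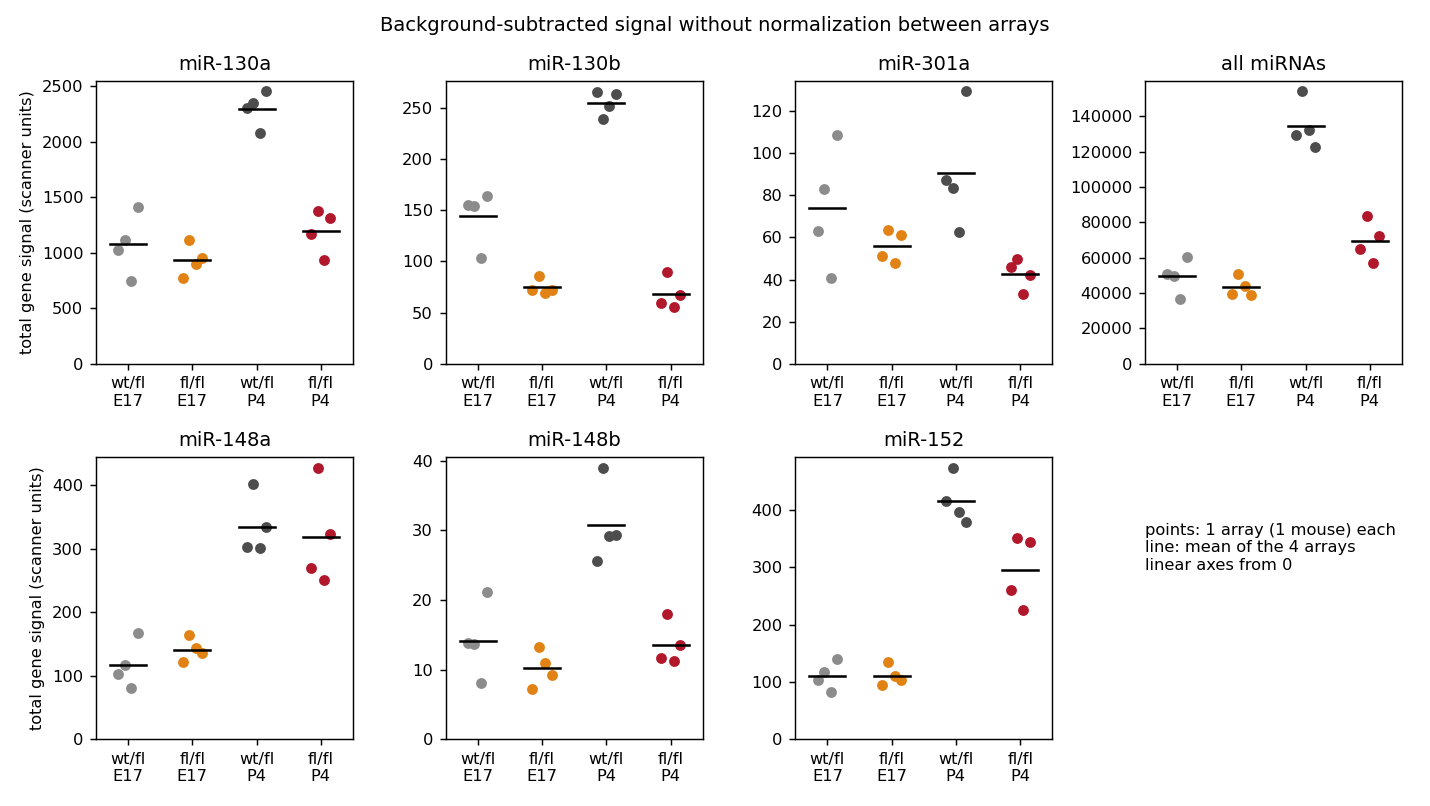
Background-subtracted total gene signal without normalization between arrays, on linear axes from 0, for 6 members and for the sum over all miRNAs. Points are arrays and lines are means of 4 arrays. The sum fell to 51.6% of the control mean in P4 mutants, miR-130b to 26.6%, and miR-148a stayed at 95% with overlapping arrays.

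Ratios of the total signals of a pair of members within an array do not depend on any scaling between arrays. They show unequal change only, and no test was made of them, since the pairs were set with the results known. The log2 ratio of miR-148a over miR-130b averaged -0.33 ± 0.26 in controls and 0.92 ± 0.12 in mutants at E17 (SD, n = 4). At P4 it was 0.38 ± 0.25 in controls and 2.22 ± 0.05 in mutants. The mutant arrays lay above all controls at both ages, by 1.24 at E17 and 1.84 at P4. The ratio of miR-130b over miR-130a, whose sequences differ by 2 bases, was lower in mutants by 0.75 at E17 and by 0.98 at P4 on the log2 scale (differences of -0.75 and -0.98), without overlap. miR-301a over miR-130a differed between the genotypes by -0.15 and -0.10 with overlapping arrays, but by -0.79 and -0.74 between the ages in controls and mutants, without overlap. In the other family, miR-152 over miR-148a was lower in mutants at both ages, with differences of -0.30 and -0.42, and miR-148b over miR-148a likewise, with -0.74 and -1.09, none of them with overlapping arrays. miR-152 over miR-130a differed by 0.19 at E17 with overlap and by 0.44 at P4 without.

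**Figure D4:**
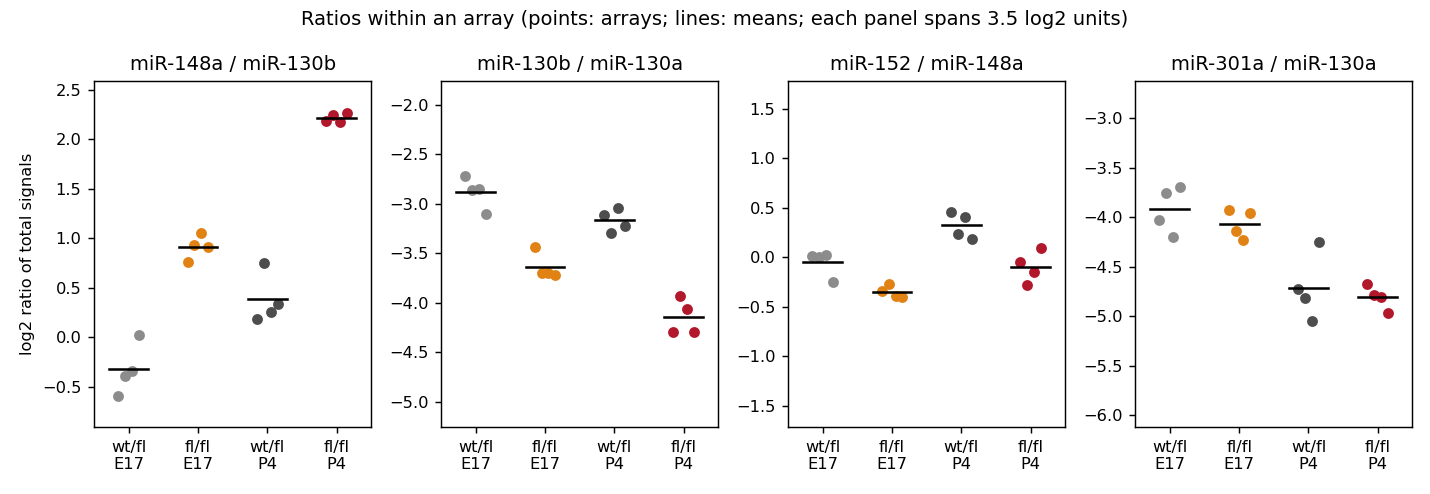
Log2 ratios of total signals of 2 members within each array, with points for arrays, lines for means of 4 arrays and panels of equal span. miR-148a over miR-130b rose from between -0.59 and 0.02 in E17 controls to between 2.18 and 2.27 in P4 mutants. miR-301a over miR-130a overlapped between the genotypes at each age.

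As shares of the total signal of an array, the miR-130 family members together held 2.60% ± 0.185 of the signal of E17 controls and 2.46% ± 0.231 of that of E17 mutants (SD, n = 4). At P4 they held 1.98% ± 0.267 and 1.88% ± 0.093. Most of this was miR-130a, with group means between 1.72% and 2.16%. The miR-148 family members held 0.487% ± 0.0459, 0.605% ± 0.0272, 0.581% ± 0.0236 and 0.896% ± 0.0603 in the order E17 controls, E17 mutants, P4 controls, P4 mutants. For the miR-130 family the shares overlapped between the genotypes at each age and not between the ages of a genotype, and for the miR-148 family the mutant arrays lay above the control arrays at both ages. Within the miR-130 family, the share of miR-130b went from 0.292% in E17 controls to 0.173% in E17 mutants and from 0.192% to 0.0972% at P4. These are shares of scanner signal and not of molecules.

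How the P4 differences read depends on the scaling between arrays. Of the 5 well measured members, miR-130b was lowest and miR-148a highest under each of 6 scalings, miR-130a and miR-301a changed places, and the zero point moved. With arrays scaled to the 75th percentile of all probes, miR-130a differed by -0.82, miR-301a by -0.53, miR-152 by -0.31 and miR-148a by 0.02. Without normalization they differed by -0.93, -0.64, -0.42 and -0.09. With the 75th percentile of the detected probes, the median of all 281 miRNAs moved to 0.695. Relative to the median of its own scaling, miR-148a stood at 0.532 after quantile normalization and at 0.099 without normalization or with either 75th percentile, and miR-130b at -0.729 and -1.17. The authors' normalized table gave -0.64 for miR-130b and 0.52 for miR-148a.

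**Figure D5:**
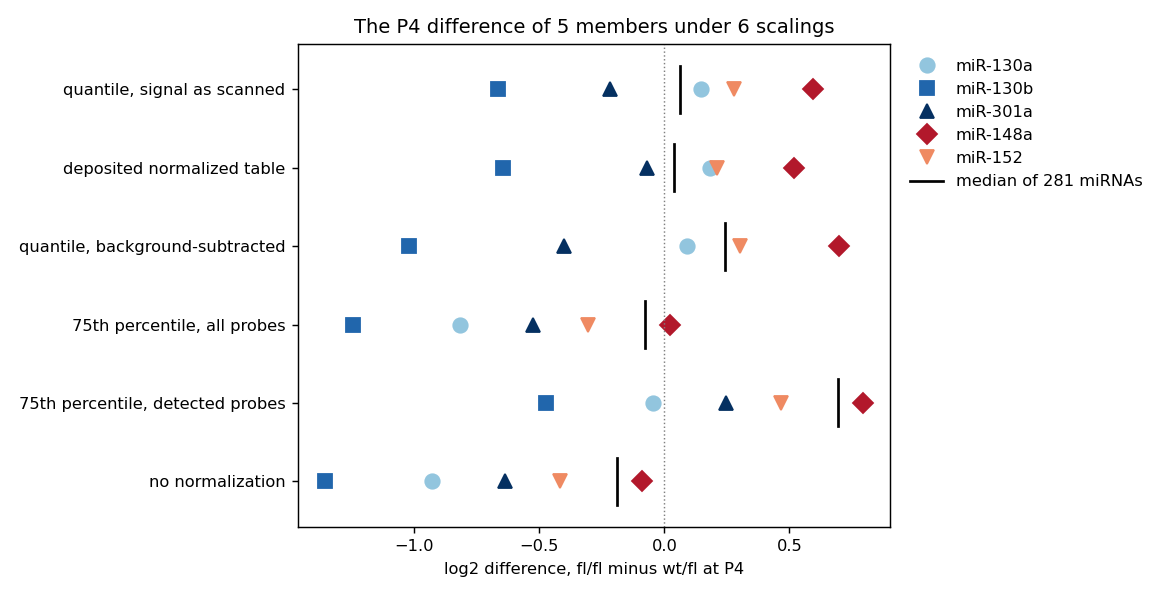
The P4 log2 difference (mutants minus controls) of 5 members under 6 scalings of the arrays, with the median of all 281 expressed miRNAs as a vertical bar. miR-130b lay left of 0 under every scaling shown, from -1.36 to -0.47. miR-148a lay between -0.09 and 0.79, 0.099 above the median under the 3 scalings without quantile normalization and between 0.455 and 0.532 above it under the other 3.

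Other miRNAs with a related seed were set beside the members. miR-721, with the same seed as the miR-130 family, and miR-19a and miR-19b, whose seed GUGCAAA overlaps it by 6 letters, are shown for comparison.
miR-721: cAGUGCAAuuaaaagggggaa
miR-19a: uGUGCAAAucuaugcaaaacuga
miR-19b: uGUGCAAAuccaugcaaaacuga

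miR-721 lies at chr5:136375777-136375797 on the minus strand, and miR-19a, of the miR-17-92 cluster, at chr14:115044048-115044070 on the plus strand. Of 10 such miRNAs and passenger strands listed, 5 were on the array and 3 expressed, and 0 were called by limma between the genotypes at either age. An unadjusted limma p under 0.05 was found for 2 of the 3 at P4 and 1 at E17. Over all 281 expressed miRNAs it was found for 170 at P4 and 95 at E17. At P4 the limma differences were 0.26 for miR-721 (adjusted p = 0.0838), -0.20 for miR-19a (adjusted p = 0.165) and -0.49 for miR-19b (adjusted p = 0.0303). At E17 they were -0.28, 0.12 and 0.04. miR-721 was thus lower in mutants at E17 and higher at P4 in the point estimates, and its interaction was called, with 0.53 (limma adjusted p = 0.0392) at the brightest probe and up to 0.62 at another. Its brightest probe was well above background on 4 control arrays and 1 mutant array at E17 and on 1 control array and 3 mutant arrays at P4. With age, miR-721 fell in controls, by 0.50 on the log2 scale at its brightest probe. Its arrays overlapped, with P4 control replicate 2 at 6.575 and the lowest E17 control at 6.454. The other probes of miR-721 were under the limit, between -0.485 and -0.444. miR-19a and miR-19b fell in mutants, by 0.52 and 0.90.

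By the root mean square distance between profiles centred on their own means over the 16 arrays, the miRNAs outside the families nearest to each member were listed as a description. miR-130b was closest to miR-18a, at 0.175, and to miR-106b, at 0.200 log2 units, against a median of 0.449 over all others. miR-18a differed by -0.49 at P4 and -0.24 at E17 between the genotypes. miR-148a was closest to miR-223, a miRNA of myeloid cells, at 0.113, and to miR-434-5p, at 0.119, with genotype differences at P4 of 0.82 and 0.45. miR-152 was closest to miR-99a (0.108) and miR-22, miR-301a to miR-19a (0.136) and miR-19b, and miR-130a to miR-543 (0.186) and miR-652. Between members, miR-148a and miR-152 were 0.213 apart, miR-130a and miR-301a 0.224, miR-130a and miR-130b 0.424 and miR-130b and miR-148a 0.682. All points share the arrays and their normalization.

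miRNAs that mark other cells of the nerve also differed between the genotypes and ages. Of the fibroblast and smooth muscle list, 3 of 4 expressed miRNAs were called higher in P4 mutants, with 0.78 for miR-199a-3p, 1.14 for miR-199a-5p and 1.09 for miR-214. The summed signal of the list was 4139 to 5658 in controls and 4020 to 7293 in mutants, and miR-145 was detected on no array. For leukocytes miR-223 was called, 1 of 2 expressed, with sums of 218.8 to 331.1 and 268.1 to 405.7, and miR-142-5p and miR-150 were detected on no array. For endothelium miR-126-3p was called higher (0.60), 1 of 2 expressed, with sums of 1138 to 2381 and 926.9 to 1512. miR-451 of red cells was called higher (1.35), while miR-144 of the same list differed by 0.04. miR-9 of neurons was called lower (-0.68), while miR-124 and miR-128 differed by 0.31 and 0.10. The 4 muscle miRNAs had differences above 0, from 0.565 for miR-133a to 0.946 for miR-206, with 0 called by limma, 0 at an unadjusted p under 0.05 and sums of 259.4 to 572.4 in controls and 197.6 to 987.6 in mutants. miR-338-3p of myelinating glia differed by -2.85, with sums of 2785 to 3783 in controls and 112.1 to 250.0 in mutants, and miR-219 was detected on no array. At E17, the same 3 fibroblast miRNAs were called higher in mutants, by 0.53 to 0.69, as was miR-142-3p of leukocytes (0.54), and miR-451 (1.47) and miR-122 of hepatocytes (-1.36) differed without a call. With age in controls, these 3 fibroblast miRNAs, miR-206, miR-451 and miR-9 were called lower and miR-338-3p higher. The part of these shifts in the age differences of miR-130a and miR-152 was not tested. Nor was the part of these shifts in the higher quantile normalized signal of miR-148a or in the lower signal of miR-130b.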

How the data were processed

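Total RNA of 16 sciatic nerves was labelled with Cy3 and hybridized to 1-colour Agilent mouse miRNA arrays (design 021828 in the headers). The deposited scanner files hold spot intensities that the authors extracted with Feature Extraction 10.5.1.1, per the submitters' processing notes, without normalization between arrays. A deposited table of intensities that the authors had quantile normalized served as an alternative, with its flags of presence unused.

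The log2 median signals of 13000 non-control spots were quantile normalized here and averaged per probe, without outlier spots. A miRNA was taken as expressed if a share of 0.5 or more of the arrays in any group detected it, which kept 681 probes of 281 names. The 4 groups were fitted together with limma 3.58.1 in R 4.3.3, moderated by eBayes and Benjamini-Hochberg adjusted over all 681 probes, for both genotype differences, both age differences and their interaction. Calls required an adjusted p no higher than 0.05 with 0.5 or more on the log2 scale for a probe, and for a miRNA 1 such probe with none the opposite way. The fit was tested on simulated data. Named were the 7 members by their brightest probe, related miRNAs and the 2 nearest profiles of each member. The members and all lists were chosen with earlier results of these data known. Names and sequences came from RefSeq. The labels give 1 mouse per array and no litters, although littermate pairs were used per the methods, and the number of arrays limits the precision.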

Additional observations from a re-analysis of the deposited data

Results flagged for a closer look

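miR-148b stood apart on 1 array of the E17 controls. Its brightest probe was at a log2 signal of 6.31 on replicate 3, while the other 3 arrays lay between 6.41 and 6.42, a gap of 0.947 of the range of the group, which is above the 95% critical value of Dixon's test for 4 samples. It was the only such case among 28 groups of 4 arrays tested (7 members in 4 groups), and chance alone gives about 1 in 20. At that rate, 1 case among 28 groups is no more than chance would give. This probe lay close to the background, and replicate 3 was also the E17 control array with the lowest total signal, 36495.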

How the results depend on the processing

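The direction of the miR-130b decrease in mutants held under all alternatives run at both ages. The calls were less stable. Of the recomputed counts of called members, 34 moved by over 1.5 times and 123 did not, and the cause was not tested. At P4, where 2 members were called, the background-subtracted signal gave 4, normexp on the median signal 0, the 75th percentile of the probes well above background 4 (without miR-130b), a limit of 1 on the log2 scale 0 and no limit 5 (all 281 miRNAs: 83 higher and 85 lower, in this order below). At E17, with 1 called, normexp, no normalization between arrays, the 75th percentile of probes well above background and the limit of 1 gave 0, and no limit gave 2 (23, 24). For age in controls, with 2 called, normexp, the authors' table and probes averaged per miRNA gave 1, the limit of 1 gave 0 and no limit 5 (89, 65). No normalization gave 5 (161, 4), with miR-130a called higher instead of lower. The 75th percentile of probes well above background gave 4 (30, 197), with neither miR-130a nor miR-152 among them. For age in mutants, with 2 called, the background-subtracted signal (46, 47), the 75th percentile of probes well above background (20, 51) and no limit (69, 50) gave 5. The limit of 1 gave 0, and 1 was called with normexp, the authors' table, no filter, the methods' adjusted t-test, probes averaged per miRNA, the compared arrays alone, array weights or the replicate block. The interaction, with 0 called, had 2 without normalization (2, 84).

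Signs turned under scaling. Without normalization, miR-130a differed by -0.93 and miR-148a by -0.09 at P4, miR-130a by 1.13 and miR-130b by 0.76 with age in controls, miR-130a by 0.37 with age in mutants and by -0.77 in the interaction. With the 75th percentile of all probes, miR-130a differed by -0.82 at P4, by 0.76 with age in controls and by 0.38 in mutants. With that of the probes well above background, miR-301b, at background, differed by 0.67 at P4 and miR-148b by -0.53 with age in controls. Without normalization the median of all expressed miRNAs moved to -0.189 at P4, 0.192 at E17, 0.568 and 0.119 with age in controls and mutants and -0.397 in the interaction, and with the 75th percentile of probes well above background to 0.695, 0.323, -0.595, -0.29 and 0.356. It moved to 0.243 at P4 with the background-subtracted signal, and with the 75th percentile of all probes to 0.197 with age in controls. Over all expressed miRNAs, the P4 calls went from 29 higher and 30 lower to 1 and 89 without normalization, to 2 and 75 with the 75th percentile of all probes, to 203 and 22 with that of probes well above background, and to 74 and 75 with the background-subtracted signal.

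Leaving out 1 array at a time gave 2 called members at P4, 1 at E17 and 0 for the interaction. With age it gave 1 to 2 in controls (1 without replicate 1 of either age or P4 replicate 3). In mutants it gave 1 to 3 (1 without E17 replicate 4, 3 without E17 replicate 3 or P4 replicate 1). Where an age count was 2, miR-301a or miR-148a at times replaced miR-130a or miR-152. The labels do not tie replicate numbers to the 4 littermate pairs per age. Same-numbered arrays had correlations of deviations of 0.171, -0.281, 0.459 and 0.164 at P4 and of -0.519 to 0.09 at E17, so that the numbers were not taken as pairs. With the replicate block within age, 2 members were called at P4, 1 at E17 and 0 for the interaction, and within genotype 2 in controls and 1 in mutants. At P4 the block moved the limma adjusted p of miR-130a from 0.494 to 0.063, with a difference of 0.147 in both fits. The alternatives on the mean spot signal were not run, since the files hold only the median, and normexp on the median was chosen after seeing the data. The t-test and the fit of compared arrays alone gave no interaction, and the filter for detection on every array of a group left out miR-301b.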
